A study of Mus musculus with 12 samples.

Results

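The comparison described here set Tgfbr2 knockout against control in the ascending aorta of mice that carry a mutant fibrillin-1 gene. Its members were chosen by their titles, 3 arrays of knockouts and 3 of controls on the Fbn1 mutant background, which are 6 of the 12 arrays of the series. Mutant knockouts were Fbn1C1039G/+.Myh11-CreERT2.Tgfbr2f/f mice that received 1 mg of tamoxifen by intraperitoneal injection on 5 days, starting at 4 weeks of age. Mutant controls had the same genotype and received corn oil on the same days. All mice were killed at 6 weeks of age, and RNA was taken from the aorta between the coronary arteries and the first branch of the arch. Both groups carried 1 mutant Fbn1 allele, floxed Tgfbr2 and Myh11-CreERT2, a Cre recombinase driven by the promoter of smooth muscle myosin heavy chain and active only with tamoxifen. The receptor gene was therefore targeted in cells that express Myh11 and not in the wall as a whole, and an effect of tamoxifen itself cannot be told apart from an effect of the deletion. The other 6 arrays are of knockouts and controls with wild-type Fbn1 made in the same way. They enter the filter, the centring of list scores and the estimate of spread behind every standard error and p-value. Their own changes are given only where the effects of the knockout in the Fbn1 genotypes are compared.

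TGF-beta binds the type II receptor encoded by Tgfbr2, which recruits and activates the type I receptor, and this phosphorylates SMAD2 and SMAD3, which enter the nucleus with SMAD4. In smooth muscle cells of the aortic wall the pathway raises genes of the extracellular matrix and of the contractile apparatus, and genes such as Smad7 and Pmepa1 that restrain the pathway in turn. Fibrillin-1 forms the microfibrils on which elastin is laid down and to which latent TGF-beta is tethered by the latent TGF-beta binding proteins. Heterozygous loss of normal fibrillin-1 is the basis of Marfan syndrome, in which the ascending aorta dilates, and the C1039G allele is a mouse model of it.

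Levels are log2 values of RMA intensity, and changes are log2 differences of group means, mutant knockout minus mutant control, with limma's standard error and 3 arrays per group. Arrays are named by group and by the number in their titles, and a group's values run from array 1 to array 3. Correlations of log2 levels between arrays lay between 0.993 and 0.996 within the mutant groups and between 0.986 and 0.993 across them. The first principal component of the 6 arrays held 55.1% of their variance and separated the groups, with scores between -12.5 and -10.1 in mutant knockouts and between 6.75 and 15.2 in mutant controls. Mutant control 3, the lowest of these, lay nearest to the knockouts. The smooth muscle markers Myh11, Acta2, Tagln, Cnn1 and Smtn stood at or above percentile 99.5 of all gene signals, so the tissue matched its label. Markers of macrophages, endothelium, fibroblasts, fat and heart muscle were also above the filter on dim signals, while Ucp1, Myh1, Myh4 and Cd79a were under it. In such bulk tissue, fewer cells of a type and less RNA per cell cannot be told apart. The labels do not state that each array came from a separate animal. The p-values therefore measure the spread between arrays within the 4 groups of the series, which may be technical.

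The targeted gene, Tgfbr2, did not show a measurable loss of signal. Its log2 level was 12.05, 12.07 and 11.98 in mutant knockouts, against 12.04, 11.98 and 11.95 in mutant controls. The groups overlapped, and the difference of 0.04 ± 0.05 had an exact two-sided permutation p of 0.3, where the smallest p that 20 assignments allow is 0.1. Its 95% confidence interval reached from -0.07 to 0.16, and its lower end corresponds to a loss of 4.72% of the signal. The 1 probe set for this gene reads the whole wall, in which cells other than smooth muscle also express the receptor, and the position of its probes relative to the deleted exon was not analysed here, so it does not check the deletion. "Knockout" is therefore used as the name the labels give.

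Several genes that the pathway itself controls did differ. Pmepa1, a membrane protein that binds receptor-activated SMADs and restrains them, had log2 levels of 13.12, 13.12 and 13.02 in mutant knockouts, against 13.64, 13.68 and 13.58 in mutant controls. It fell by 0.55 ± 0.05 (adjusted p 3.53e-05), and no knockout array overlapped a control array. Ldlrad4, a relative of Pmepa1 with the same role, stood at 11.45, 11.47 and 11.48 in knockouts against 12.29, 12.09 and 12.01 in controls and fell by 0.67 ± 0.07. The follistatin-like activin inhibitor Fstl3 fell by 0.65 ± 0.07. Smad7, the inhibitory SMAD often used as a readout of the pathway, was at -0.11 ± 0.15 and did not pass the test (adjusted p 0.645). Among receptors and co-receptors, Tgfbr1 (-0.14), Tgfbr3 (0.08) and Eng (0.18) did not pass, and the activin receptor Acvr1b fell by 0.25, a call that ended without any of 5 of the 6 arrays (adjusted p up to 0.112). Of the ligands, Tgfb1 (-0.03) and Tgfb2 (-0.29) did not pass, and Tgfb3 rose by 0.21 ± 0.06, which ended when any array but mutant control 3 was left out. Ltbp1 and Ltbp3, which tether latent ligand to microfibrils, fell by 0.45 ± 0.07 and 0.58 ± 0.05, and all 6 knockout values of these genes lay below all control values. Smad9, which carries signals of bone morphogenetic proteins (BMPs), rose by 0.37 ± 0.06.

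**Figure D1:**
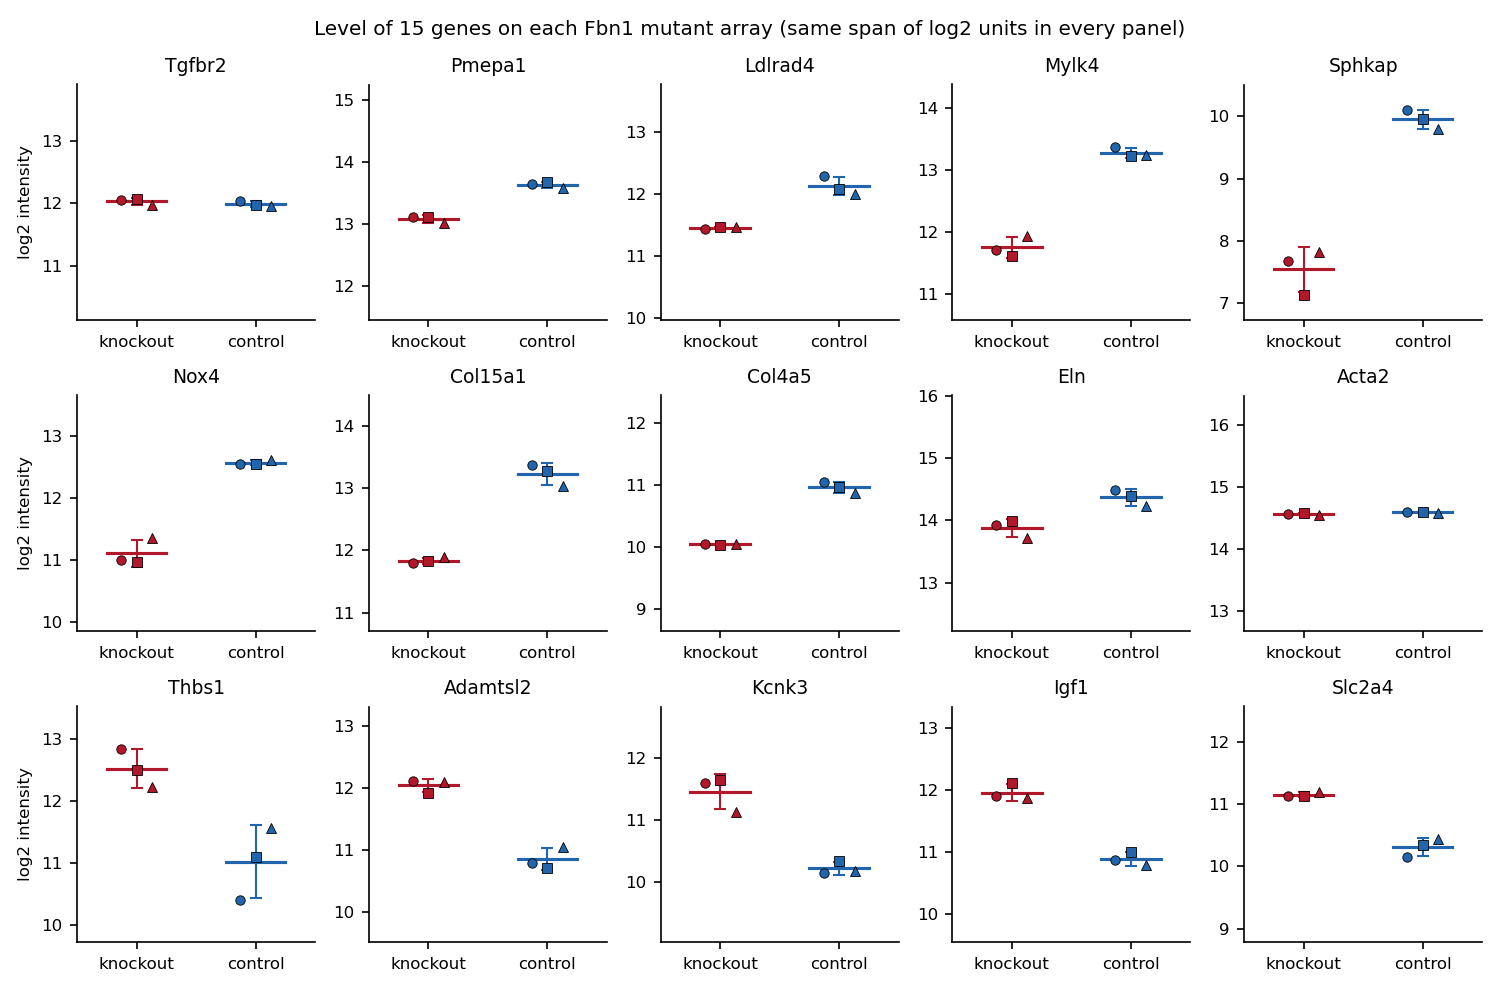
Log2 level (RMA intensity) of 15 genes on the 6 mutant arrays, with mutant knockouts on the left and mutant controls on the right of each panel. Circles, squares and triangles are replicates 1, 2 and 3, bars are the mean ± SD, and all panels span the same number of log2 units. Tgfbr2 overlaps between the groups and Acta2 differs by little, whereas Sphkap, Mylk4 and Col4a5 lie wholly below the controls and Adamtsl2 and Kcnk3 wholly above them.

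Across the transcriptome the knockout moved many genes by small amounts. Of 14944 genes tested, 2008 changed at an adjusted p under 0.05, which is 13.4%, with 1145 (7.66%) risen and 863 (5.77%) fallen. Most changes were under 1.5-fold: 102 genes rose and 104 fell by at least 1.5-fold, and 18 rose and 20 fell by at least 2-fold. The median over all genes tested was 0.03, so more genes lay above 0 than below it. Counts of list members above 0 given below carry this lean, and the share of all genes above 0 was not counted. The counts of risen and fallen list members given below are to be read against the shares of 7.66% and 5.77%. The excess of risen genes depended on the scaling, since 660 rose and 1373 fell when each array was centred on its median, and 924 rose and 925 fell with quantile normalization. The count also rested on single arrays. Leaving out mutant control 2 gave 896, mutant knockout 2 1049, mutant knockout 1 1160, mutant control 1 1209, mutant knockout 3 1718 and mutant control 3 1877. A total of 693 genes, 334 risen and 359 fallen, were called in each of these 6 fits. Without regard to the test, the 3 arrays of each group did not overlap in 5358 genes (35.9%), with the knockouts above in 3248 (21.7%) and below in 2110 (14.1%).

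**Figure D2:**
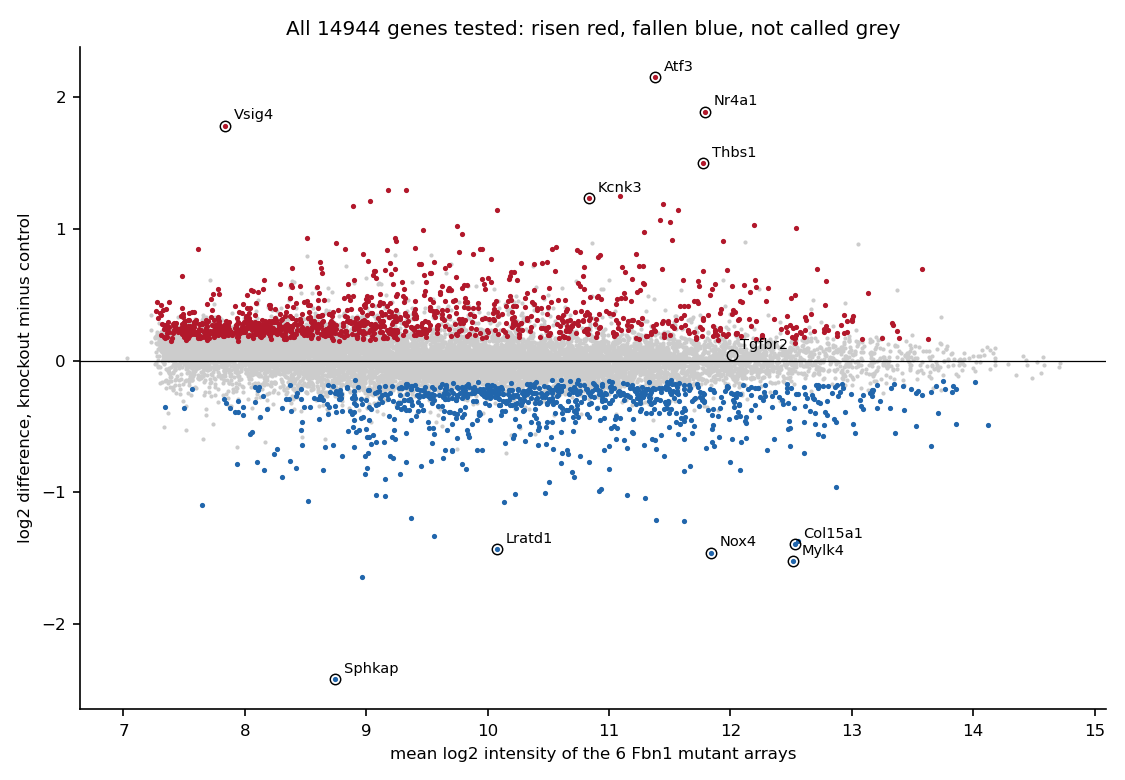
Log2 difference, mutant knockout minus mutant control, of all 14944 genes tested against the mean log2 level of the 6 mutant arrays, with 1145 risen genes in red, 863 fallen genes in blue and genes not called in grey. Most called genes lie within 1 log2 unit of 0, and Sphkap, Mylk4, Nox4, Lratd1 and Col15a1 are the lowest of the labelled points.

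The decreases past 1 log2 unit were in genes of varied roles. Sphkap, an anchoring protein for protein kinase A that interacts with sphingosine kinase, had log2 levels of 7.67, 7.12 and 7.81 in mutant knockouts, against 10.11, 9.96 and 9.80 in mutant controls. It fell by 2.42 ± 0.31 (adjusted p 0.00044), down to about the level of the filter on dim signals (7.31), near which intensity understates a loss. Mylk4, a kinase of the myosin light chain kinase family, stood at 11.72, 11.60 and 11.94 in knockouts against 13.37, 13.22 and 13.24 in controls and fell by 1.52 ± 0.08 (adjusted p 5.92e-07). Nox4, an NADPH oxidase that produces hydrogen peroxide and a textbook SMAD target, stood at 10.999, 10.96 and 11.36 in knockouts against 12.54, 12.55 and 12.62 in controls and fell by 1.46 ± 0.09. In all 3 genes the knockout arrays lay far below the control arrays, and knockout 3 was the highest knockout.

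Lratd1 fell by 1.43 ± 0.07 and Htr1b, the serotonin receptor 1B that mediates constriction of arteries, by 1.22 ± 0.15. Igfbp2, a carrier of insulin-like growth factors, had levels of 9.55, 9.53 and 9.72 in mutant knockouts against 10.96, 10.72 and 10.34 in mutant controls and fell by 1.07 ± 0.14. The groups did not overlap, and the controls were more spread out than the knockouts. Ptprz1, a receptor tyrosine phosphatase, fell by 1.04 ± 0.15, Rab9b, a small GTPase of endosomes, by 1.03 ± 0.09 and Vnn1, a pantetheinase, by 1.02 ± 0.09. Gmnc, a regulator of multiciliated cells, fell by 1.10 ± 0.16, Ppp1r36 by 1.07 ± 0.09 and Slc38a11, of an amino acid transporter family, by 1.01 ± 0.08. Gmnc was under the level of the filter (7.31) in all mutant knockouts (6.93, 7.09 and 7.27), so its loss may be understated. All 15 of the largest decreases named by the rule, with P3h2, Col15a1 and Trim58 below, were called when any 1 of the 6 mutant arrays was left out.

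Some of the genes that fell most lie next to each other on chromosome 11. In RefSeq gene order (GRCm38.p6) the tested genes Olfr330, Olfr328, Olfr224, Olfr325, 2210407C18Rik and Trim58 follow each other, and all 6 fell. Apart from Trim58, a ubiquitin ligase of maturing red cells, these genes and the neighbours named with them were chosen after their values were seen. They fell by 1.33, 1.20, 1.21, 0.43, 1.37 and 1.01 in that order. 2210407C18Rik was well expressed, at 11.79, 11.70 and 12.12 in mutant knockouts against 13.14, 13.26 and 13.32 in mutant controls, and Olfr224 stood at 10.67, 10.83 and 10.84 in knockouts against 11.97, 12.12 and 11.89 in controls. Neither gene's groups overlapped, while the call of Olfr325 ended without control 1, control 2 or knockout 1 of the mutant (adjusted p up to 0.0607). The tested neighbours just outside did not fall: Lypd9 (0.26, risen), Olfr30 (0.09) and Olfr332 (0.07) on one side and Olfr322 (0.15), Olfr320 (0.08) and Olfr316 (0.01) on the other. No other run of neighbouring tested genes that all fell was longer than 4 genes. Olfactory receptor genes resemble each other, so probes of one may also read a neighbour, and whether the 6 probe sets read separate transcripts was not tested. The same 6 genes were also lower in wild-type knockouts, by between 0.49 and 0.83, and for 5 of them the difference between the genotypes did not pass its test.

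Several microRNA genes were also measured and moved with the knockout. These genes lie outside the rule for naming and were chosen after their values were seen. Of 133 tested, 8 rose and 7 fell (11.3%, against 13.4% of all genes), with a median of 0.05. The array reads their precursors or host transcripts and does not separate the mature arms. Mir140 fell by 1.65 ± 0.15 (adjusted p 4.54e-05), with log2 levels of 7.97, 8.14 and 8.32 in mutant knockouts, against 9.69, 10.11 and 9.57 in mutant controls. It lies inside the interval of Wwp2, a ubiquitin ligase gene, on chromosome 8, and Wwp2 fell by 0.84 ± 0.08, at 11.18, 11.20 and 11.23 in knockouts against 12.05, 12.15 and 11.92 in controls. Neither gene's groups overlapped, and the wild-type knockouts changed by -1.70 and -0.89. Mir365-1 fell by 0.76 ± 0.11 between its neighbours on chromosome 16, Mrtfb (-0.24), a coactivator of contractile genes, and 2310015D24Rik (-0.58), both also fallen, although the call of Mrtfb ended without mutant knockout 2 (adjusted p 0.0523). Mir212 rose by 0.37 ± 0.07. The genes of the miR-181 family, Mir181b-1 (-0.76 ± 0.22), Mir181b-2 (-0.67 ± 0.17) and Mir181a-2 (-0.36 ± 0.11), were called, but each call ended without 1 or more arrays (adjusted p up to 0.162).
A mature sequence of each precursor is shown so that its targets can be looked up, with the seed (bases 2 to 8) in capitals, from RefSeq with coordinates of GRCm38.p6.
mmu-miR-140-3p (chr8:107551288-107551308, plus strand): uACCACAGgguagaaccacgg
mmu-miR-365-3p (chr16:13453895-13453916, plus strand): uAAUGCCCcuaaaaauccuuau
mmu-miR-181a-5p (chr2:38852741-38852763, plus strand): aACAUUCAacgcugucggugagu
mmu-miR-181b-5p (chr2:38853845-38853868, plus strand): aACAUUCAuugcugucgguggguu
mmu-miR-212-3p (chr11:75173443-75173464, plus strand): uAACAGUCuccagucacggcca
The miR-181 sequences share the seed ACAUUCA, and the other seeds differ from it and from each other.

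Contractile genes of smooth muscle went both ways, while Acta2, Myh11, Tagln and Cnn1, the first of the list, did not pass the test. Acta2, the smooth muscle actin, averaged 14.56 ± 0.02 in mutant knockouts and 14.60 ± 0.01 in mutant controls (SD, n = 3 each), a difference of -0.04 ± 0.04 (adjusted p 0.566). Myh11, Tagln and Cnn1 were at 0.03, 0.02 and -0.01, with adjusted p-values of 0.642, 0.806 and 0.922. These 4 genes are among the brightest on the array, and differences of such bright signals may be compressed, which was not tested. Of 35 genes tested on the contractile list, 6 rose (17.1%, against 7.66% of all genes) and 8 fell (22.9%, against 5.77%), with a median of 0.03, which turned negative when arrays were centred. The list also holds genes of other roles, such as Ckb and Npnt. Ckb, the brain-type creatine kinase, rose by 0.70 ± 0.08 and Des, the muscle filament desmin, by 0.52 ± 0.08. Ldb3, a Z-disc protein, rose by 0.39 ± 0.06 and Actg2, the enteric smooth muscle actin, by 0.30 ± 0.05. Npnt, a matrix ligand of integrins, fell by 0.48 ± 0.05 and Nexn, an actin-binding protein, by 0.35 ± 0.07. The rise of Des and Ldb3 ran beside a rise of heart and skeletal muscle genes described below. The number of fallen genes was 2 without mutant knockout 2, 3 without mutant knockout 1 and 4 without mutant control 1 or 2. After adjustment for the immediate early score described below, 1 contractile gene rose and 1 fell.

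Among matrix genes, those of basement membranes had the lowest median of all 45 lists. Of 27 tested, 11 fell (40.7%, against 5.77% of all genes) and 1 rose, a call that ended without any array but mutant control 3. The median was -0.19, and between 9 and 12 fell when 1 mutant array was left out. Col15a1, a collagen that links basement membranes to the fibrils around them, stood at 11.79, 11.83 and 11.89 in mutant knockouts against 13.37, 13.28 and 13.03 in mutant controls, and it fell by 1.39 ± 0.07 (adjusted p 5.92e-07). The collagen IV chain gene Col4a5 stood at 10.05, 10.04 and 10.05 in knockouts against 11.05, 10.97 and 10.88 in controls and fell by 0.92 ± 0.05 (adjusted p 9.83e-07). Both genes were tightly grouped in the knockouts, and the groups did not overlap. Col4a6, which pairs with Col4a5, fell by 0.70 ± 0.07, and the chains of the common collagen IV, Col4a1 and Col4a2, fell by 0.56 ± 0.07 and 0.65 ± 0.08. Col4a3 (-0.08) and Col4a4 (-0.10), which form the network of kidney and lung, did not pass. P3h2, an enzyme that hydroxylates proline in collagen IV, fell by 1.02 ± 0.12 and the heparan sulfate proteoglycan agrin, Agrn, by 0.39 ± 0.05. The summed intensity of the 27 genes lay between 100731 and 106108 in knockouts and between 122867 and 136621 in controls.

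Elastic fibre genes fell in smaller steps. Of 24 tested, 10 fell and 2 rose, with a median of -0.08, and 6 fell without mutant control 1. The risen numbered 1 without mutant control 2, mutant knockout 1 or mutant knockout 2 and 4 without mutant knockout 3. Eln, the gene of elastin, stood at 13.92, 14.00 and 13.72 in mutant knockouts against 14.50, 14.39 and 14.23 in mutant controls, so that every knockout lay below every control, and it fell by 0.49 ± 0.10 (adjusted p 0.00683). Lox, which crosslinks elastin and collagen, fell by 0.49 ± 0.10 and the microfibril-associated Mfap4 by 0.40 ± 0.06. Adamtsl2, a secreted protein that binds fibrillin-1 and Ltbp1, went the other way. It stood at 12.10, 11.91 and 12.10 in knockouts against 10.78, 10.71 and 11.05 in controls and rose by 1.19 ± 0.09 (adjusted p 1.19e-05). Fbln2, a fibulin of elastic fibres, rose by 0.42 ± 0.11, a call that ended without mutant control 2, mutant knockout 1 or mutant knockout 2 (adjusted p up to 0.128), while Fbn2 (0.05) and Fbln1 (0.12) did not pass. After adjustment for the immediate early score described below, Eln (adjusted p 0.144) and Lox (0.136) were not called and 3 elastic fibre genes fell.

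Fibrillar collagens and the enzymes that process them fell in part. Of 11 fibrillar collagens 3 fell, or 5 without mutant control 3, and 0 rose, with a median of -0.05. Col3a1, the collagen III chain, stood at 12.55, 12.63 and 12.58 in mutant knockouts against 13.10, 12.99 and 12.91 in mutant controls and fell by 0.41 ± 0.08. Col5a2 fell by 0.38 ± 0.06 and Col1a2 by 0.23 ± 0.06, the last of which ended without mutant control 1 or 2 or mutant knockout 1 or 3. Col1a1 (-0.22, adjusted p 0.053) and Col5a1 (-0.20) did not pass. Among 22 folding and processing enzymes 7 fell and 1 rose, with a median of -0.13. Plod2, a lysyl hydroxylase, fell by 0.30 ± 0.05, the prolyl 3-hydroxylases P3h1 and P3h3 by 0.26 and 0.25, and the galactosyltransferase Colgalt1 by 0.28 ± 0.05. Cthrc1, a secreted protein made in injured arteries, rose by 0.75 ± 0.11. Of 23 other collagens 4 rose and 2 fell, or 1 without any array but mutant control 3 or mutant knockout 2, among them the fibril-associated Col12a1 (0.55 ± 0.12) and Col14a1 (-0.32 ± 0.06). After adjustment for the immediate early score, Col3a1 (adjusted p 0.104) and Col5a2 (0.0823) were not called. In that fit 0 fibrillar collagens fell, and 1 folding and processing enzyme rose and 1 fell.

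**Figure D3:**
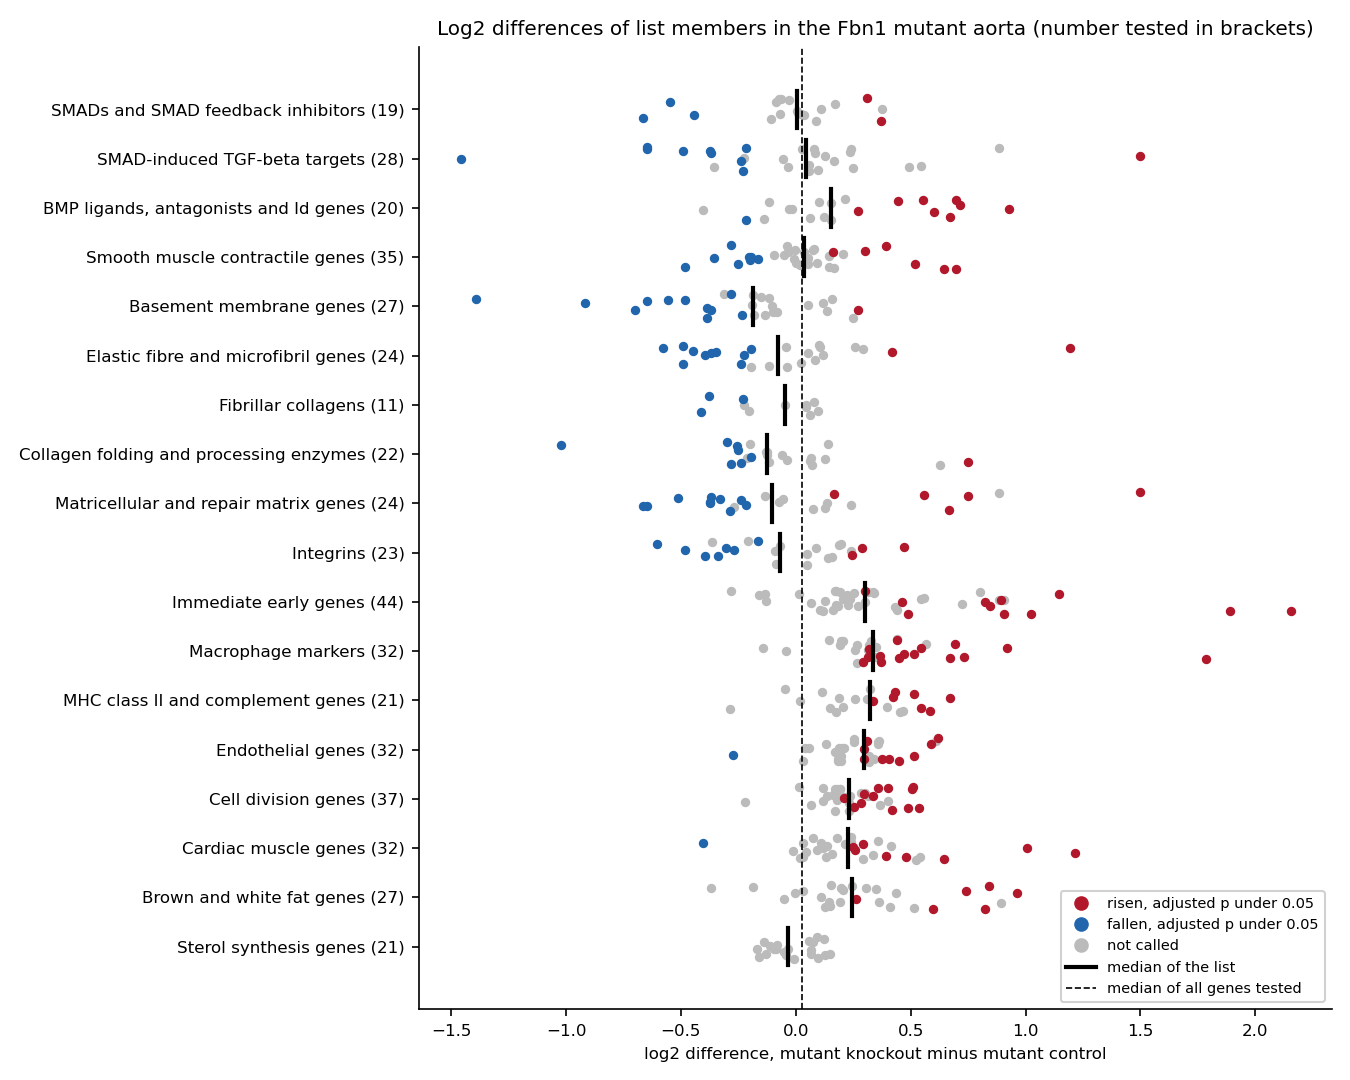
Log2 difference, mutant knockout minus mutant control, of the tested members of 18 gene lists, 1 point per gene, red for risen, blue for fallen and grey for not called. Black bars are list medians and the dashed line is the median of all genes tested (0.03). Blue points outnumber red ones among basement membrane and elastic fibre genes, and red outnumber blue among macrophage, immediate early and cell division genes. Grey points are the largest class in each of these lists.

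Matricellular genes split. Of 24 tested, 10 fell and 5 rose, with a median of -0.10, and the fallen numbered 6 without mutant knockout 1 and the risen 3 without mutant control 2. After adjustment for the immediate early score 2 fell and 4 rose. Thbs1, thrombospondin 1, which can release TGF-beta from its latent form, stood at 12.84, 12.51 and 12.23 in mutant knockouts against 10.41, 11.10 and 11.57 in mutant controls. It rose 2.83-fold (adjusted p 0.00215), and every knockout lay above every control. Ccn4, a matricellular protein induced by Wnt signals, rose by 0.67 ± 0.11. Tnc, tenascin C, fell by 0.65 ± 0.13, Tnxb, tenascin X, by 0.66 ± 0.13, Matn2, a filament-forming matrilin, by 0.51 ± 0.09 and Postn, periostin, by 0.24 ± 0.04. Of 32 proteoglycan genes 5 fell and 2 rose (6.25%, against 7.66% of all genes), with a median of 0.04. The risen numbered 4 when mutant control 3 was left out, 0 when it was mutant knockout 1 and 1 for each of the other 4 arrays. Acan, aggrecan, fell by 0.98 ± 0.19, although knockout 3 (10.93) lay well above knockouts 1 and 2 (10.45 and 9.96) and nearer the controls (11.50, 11.43 and 11.34). The proteoglycan Cspg4, a marker of mural cells, fell by 0.46 ± 0.08, and Vcan (-0.09), Bgn (-0.11) and Dcn (-0.08) did not pass. Of 44 proteases and inhibitors 6 fell (13.6%) and 4 rose (9.09%, near the 7.66% of all genes), with a median of 0.01. Timp4, an inhibitor of metalloproteinases, rose by 1.25 ± 0.15, at 11.68, 11.64 and 11.84 in knockouts against 10.42, 10.25 and 10.73 in controls. Adamts6 fell by 0.80 ± 0.12 and the serine protease Htra1 by 0.56 ± 0.07, while Mmp2 (-0.21), Mmp9 (-0.11), Mmp3 (-0.67) and Mmp14 (-0.08) did not pass. The fallen proteases numbered 2 without mutant control 1 and 3 without mutant knockout 1.

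Of the SMAD-induced targets as a whole, 28 were tested, 9 fell (32.1%, against 5.77% of all genes) and 1 rose, with a median of 0.04. Nox4, Tnc, Fstl3, Lox, Tgfbi and Postn were among the fallen, Thbs1 was the 1 that rose, and Ccn2, the connective tissue growth factor often used as a readout, was at -0.05 (adjusted p 0.688). The risen numbered 5 without mutant control 3 and 3 without mutant knockout 2, and the fallen 6 without control 1, control 2 or knockout 1 of the mutant. The fallen numbered 3 after adjustment for the immediate early score. A motif bound by SMADs was about as frequent in the promoters of fallen genes as in those of all genes. The letters CAGACA occurred on either strand in the 300 bases around the start of 144 of 678 fallen genes with a promoter in RefSeq (21.2%), against 2364 of 11792 genes tested. This describes these windows only.

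Integrins, the receptors that bind matrix, fell more often than they rose. Of 23 tested, 7 fell and 3 rose, with a median of -0.07. The risen numbered 1 without control 2, knockout 2 or knockout 3 of the mutant. The fallen numbered 4 without mutant control 1, mutant knockout 1 or mutant knockout 2. After adjustment for the immediate early score 2 fell and 2 rose. Itgb3, which pairs with the alpha V chain, fell by 0.60 ± 0.10 and Itgb5, which does too, by 0.30 ± 0.05. The alpha V chain itself, Itgav, fell by 0.27 ± 0.06, a call that ended without mutant control 1, mutant knockout 1 or mutant knockout 2. Itga9 fell by 0.48 ± 0.08 and the laminin receptor chain Itga7 by 0.40 ± 0.07. Itgam, a leukocyte integrin, rose by 0.47 ± 0.06.

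Genes that set the tone of the vessel moved in both directions. Kcnk3, the potassium channel TASK-1 that holds smooth muscle polarised, stood at 11.60, 11.64 and 11.13 in mutant knockouts, against 10.15, 10.34 and 10.18 in mutant controls. It rose by 1.24 ± 0.11 (adjusted p 3.44e-05), and the groups were clearly apart. P2rx1, the ATP-gated channel of sympathetic contraction, rose by 1.05 ± 0.13 and Kcnj8, the pore of the vascular ATP-sensitive potassium channel, by 0.58 ± 0.08. The calcium channels Cacna1c (-0.20), Cacna1d (0.17), Cacna1g (0.15) and Cacna1h (0.19) did not pass, and of 23 channel and calcium genes 4 rose and 1 fell, which ended without control 1, control 2, knockout 1 or knockout 2 of the mutant. Of 31 vasoactive genes 5 rose and 6 fell, and the fallen numbered 3 without control 2, control 3 or knockout 2 of the mutant and the risen 3 without control 1, control 2 or knockout 1 of the mutant. Ddah1, which degrades an inhibitor of nitric oxide synthesis, stood at 10.22, 9.96 and 9.30 in knockouts against 8.13, 8.66 and 8.81 in controls and rose by 1.29 ± 0.25. The adrenergic receptor Adra1b rose by 0.73 ± 0.07 and the natriuretic peptide clearance receptor Npr3 by 0.48 ± 0.07, while the angiotensin receptor Agtr1a (0.20) did not pass.

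Genes of BMP signalling rose more often than they fell, and growth factor genes went both ways. Igf1, insulin-like growth factor 1, stood at 11.90, 12.11 and 11.87 in mutant knockouts against 10.88, 11.003 and 10.79 in mutant controls. It rose by 1.07 ± 0.12 (adjusted p 0.000288) while its binding protein Igfbp2 fell, and Igf1r (0.01) and Igf2 (0.15) did not pass. Of 38 growth factor genes 5 rose and 5 fell. Of 20 BMP ligands, antagonists and Id genes 8 rose and 1 fell, with a median of 0.15. The risen numbered 3 without mutant control 2 or mutant knockout 1, 4 without mutant control 1 and 5 without mutant knockout 2. The fallen numbered 0 without mutant control 1 and 2 without mutant knockout 3. After adjustment for the immediate early score 2 rose and 0 fell. Id4, an inhibitor of DNA binding that BMPs induce, stood at 12.16, 11.98 and 11.96 in knockouts against 11.47, 11.44 and 11.38 in controls and rose by 0.60 ± 0.08. Gdf6, a BMP family ligand, rose by 0.93 ± 0.13 and the activin antagonist Fst by 0.67 ± 0.12. Id1 (0.70 ± 0.18), Id3 (0.44 ± 0.10) and Bmp6 (0.72 ± 0.17) rose as well, but each lost its call without 2 to 4 of the arrays (adjusted p up to 0.0957), and Id2 (0.15) did not pass. Of 38 Notch and Wnt genes 8 rose, or 5 without mutant control 2 or mutant knockout 1, and 4 fell: the Wnt antagonist Frzb rose by 0.71 ± 0.12, while the Notch effector Heyl fell by 0.62 ± 0.08 and the R-spondin receptor Lgr6 by 0.59 ± 0.06. Among 37 developmental transcription factors 7 rose and 2 fell, with 3 risen without mutant control 2 and 4 without mutant control 1. Foxf1 (0.97 ± 0.12), Prrx2 (0.86 ± 0.10) and Tcf21 (0.85 ± 0.15), factors of mesenchyme, rose.

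Other large increases were in genes with varied roles. The small GTPase gene Rasl10b stood at 9.78, 9.82 and 10.34 in mutant knockouts against 8.75, 8.62 and 8.68 in mutant controls and rose by 1.30 ± 0.13. Egln3, a prolyl hydroxylase that marks hypoxia-inducible factors for destruction, stood at 10.68, 10.87 and 10.39 in knockouts against 9.40, 9.47 and 9.64 in controls and rose by 1.15 ± 0.12. The groups were separate in both genes. Slc2a4, the insulin-regulated glucose transporter GLUT4, stood at 11.14, 11.13 and 11.20 in knockouts against 10.15, 10.34 and 10.45 in controls, a rise of 0.84 ± 0.07 (adjusted p 3.12e-05). Ppargc1a, a coactivator of mitochondrial genes, rose by 0.82 ± 0.10 and Ldhb, a lactate dehydrogenase, by 0.47 ± 0.07. Of 40 respiratory chain genes 1 rose, or 3 without mutant control 3 and 0 without any of the other 5 arrays, and 0 fell, with a median of 0.09. Of 23 glycolysis and glucose uptake genes 5 rose and 2 fell, and 0 fell without mutant control 1, mutant knockout 1 or mutant knockout 2 and 1 without any of the other 3 arrays. Genes of sterol synthesis had 0 of 21 called by limma, with a median of -0.03 and values between -0.17 and 0.15.

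Immediate early genes, which cells switch on within minutes of a stimulus or of handling, rose in part and unevenly. Of 44 tested, 11 rose and 0 fell, or 1 without mutant control 1 or mutant knockout 3, with a median of 0.30. The transcription factor Atf3 had log2 levels of 13.06, 11.52 and 12.80 in mutant knockouts, against 9.996, 10.33 and 10.59 in mutant controls. The nuclear receptor Nr4a1 stood at 13.66, 12.33 and 12.23 in knockouts against 10.63, 10.92 and 10.99 in controls. Every knockout exceeded every control in both genes, but knockout 2 was far below knockouts 1 and 3 in Atf3, and knockout 1 far above the others in Nr4a1. Atf3 rose by 2.15 ± 0.54 (adjusted p 0.0219), a call that ended when control 1 (0.0709), control 2 (0.0639), knockout 1 (0.0746) or knockout 3 (0.0588) of the mutant was left out. Nr4a1 rose by 1.89 ± 0.41 and Nr4a3 by 1.02 ± 0.16, and Nr4a2, chosen after its values were seen, rose by 0.82 ± 0.21, a call that ended without mutant control 1 or 2. Sik1, a kinase induced by cyclic AMP, rose by 1.15 ± 0.21, Ier5 by 0.91 ± 0.18, Myc by 0.84 ± 0.16 and Jund by 0.30 ± 0.06, while Fos (0.80 ± 0.50), Fosb (0.56), Fosl1 (0.23) and Fosl2 (0.30) did not pass. The mean score of the list, centred on all arrays, was 0.52, -0.04 and 0.31 in mutant knockouts, against -0.26, -0.22 and -0.06 in mutant controls, so knockout 2 stood apart from the other knockouts. The number of risen genes was 6 without mutant control 1 or mutant control 2 and 7 without mutant knockout 1 or mutant knockout 3. It was 16 without mutant knockout 2. With the score as a covariate, which averages these same genes, 0 rose and 1 fell. The score itself differed between the groups, so this adjustment also widens standard errors (for Tgfbr2 from 0.05 to 0.07). In every list, calls lost with it therefore do not separate a dependence on immediate early genes from lost precision.

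The promoters of the 3 Nr4a genes are shown because they share a feature. Each holds 4 copies of TGACG, the half-site bound by factors of the CREB and ATF family, on either strand. In the sequences, from 250 bases before to 50 after the start in RefSeq (GRCm38.p6), the half-sites are in capitals.
Nr4a1 (chr15:101266596-101266895, plus strand): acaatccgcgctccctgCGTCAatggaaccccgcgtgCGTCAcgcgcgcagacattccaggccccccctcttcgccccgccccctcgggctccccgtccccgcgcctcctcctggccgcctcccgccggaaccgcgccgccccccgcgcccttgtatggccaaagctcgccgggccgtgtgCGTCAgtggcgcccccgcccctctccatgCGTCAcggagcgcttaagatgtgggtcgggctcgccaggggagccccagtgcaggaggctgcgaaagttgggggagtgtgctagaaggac
Nr4a2 (chr2:57123954-57124253, minus strand): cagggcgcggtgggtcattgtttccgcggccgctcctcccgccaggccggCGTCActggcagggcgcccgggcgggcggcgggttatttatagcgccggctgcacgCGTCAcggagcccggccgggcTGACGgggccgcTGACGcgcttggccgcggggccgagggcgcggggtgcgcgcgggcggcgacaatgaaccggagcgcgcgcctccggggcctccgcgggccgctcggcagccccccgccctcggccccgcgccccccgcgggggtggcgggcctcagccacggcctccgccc
Nr4a3 (chr4:48045055-48045354, plus strand): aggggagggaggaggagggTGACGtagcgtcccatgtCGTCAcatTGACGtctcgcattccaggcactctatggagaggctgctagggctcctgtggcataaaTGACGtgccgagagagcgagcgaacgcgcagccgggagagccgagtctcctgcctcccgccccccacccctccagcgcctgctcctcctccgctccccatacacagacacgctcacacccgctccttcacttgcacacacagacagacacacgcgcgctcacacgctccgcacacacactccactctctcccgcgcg
At least 4 half-sites occurred in 59 of 11792 tested genes with a promoter in the table (0.5%), and at least 1 in 32.3% of them. Among the 35 immediate early genes with a promoter, 24 had at least 1 (68.6%) and 3 had at least 4. The promoter of Atf3, which rose more than the Nr4a genes and is not shown, held 1. A match of letters does not show that a factor binds there, and the feature was chosen after the changes were seen.

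**Figure D4:**
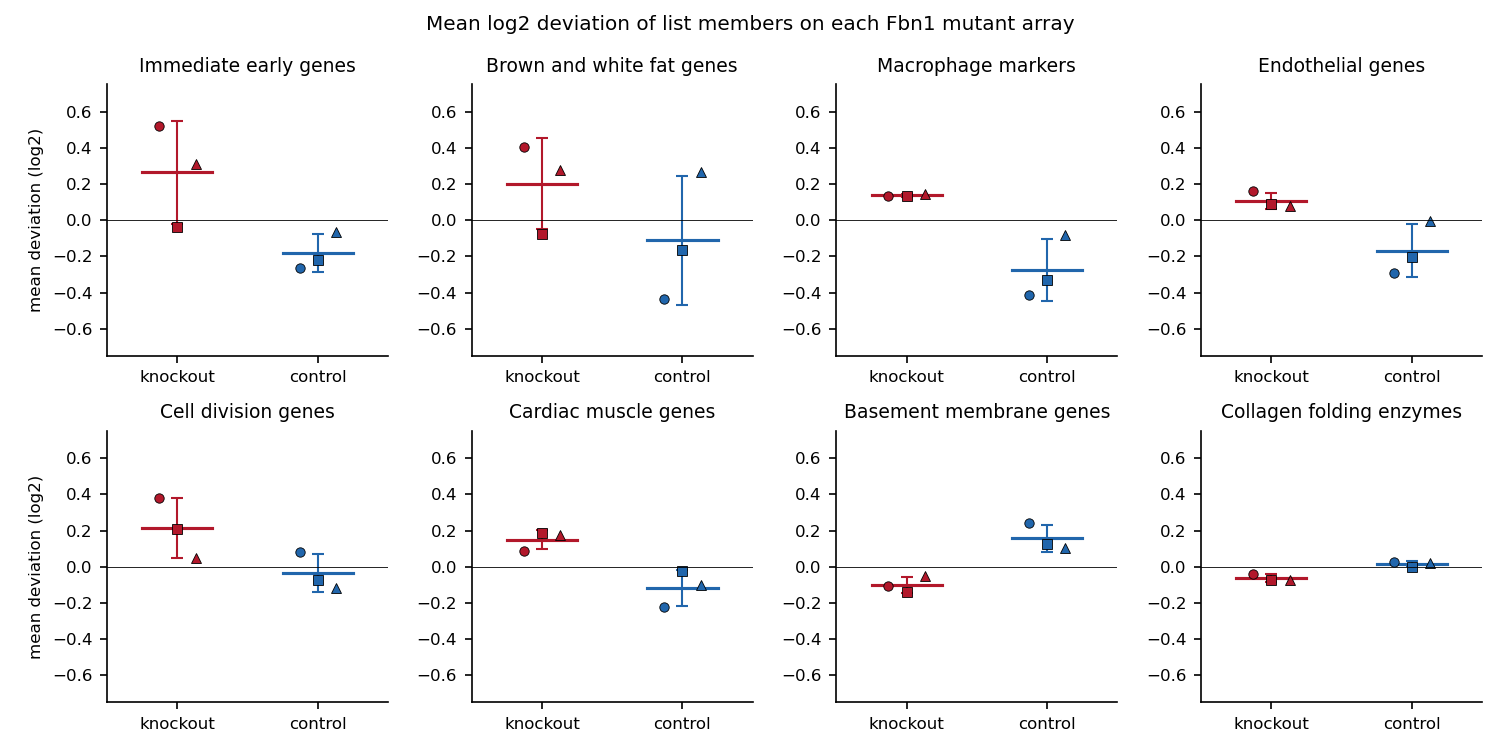
Mean centred log2 level of the members of several gene lists on each mutant array, with mutant knockouts on the left and mutant controls on the right of each panel, circles, squares and triangles for replicates 1, 2 and 3, and bars for the mean ± SD. The macrophage score is nearly the same in the 3 knockouts and highest among controls in control 3, the fat score overlaps between the groups, and in the immediate early score knockout 2 (-0.04) stands beside control 3 (-0.06).

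Of 25 heat shock genes 4 rose and 0 fell, or 2 without mutant knockout 3, with Hspa1a, the inducible HSP70, at 12.37, 12.28 and 12.53 in mutant knockouts against 10.98, 11.66 and 11.82 in mutant controls, a rise of 0.91 ± 0.19. Of 24 ERK output genes 6 rose and 0 fell, or 1 without mutant knockout 3, but 1 rose without mutant control 2, 2 without mutant control 1, mutant knockout 1 or mutant knockout 3 and 4 without mutant control 3, and the ERK phosphatase Dusp6 was at 0.01. Of 30 endoplasmic reticulum stress genes 1 rose, or 0 without control 1, control 2, knockout 1 or knockout 2 of the mutant, and 3 fell, or 1 without control 1, control 2 or knockout 1, with the main chaperone Hspa5 at -0.16 (adjusted p 0.152). Of 21 genes known to answer estrogen or tamoxifen 5 rose, or 3 without any of 4 arrays (controls 1 and 2, knockouts 2 and 3), and 1 fell, or 0 without any of the 3 knockouts. Of these Ephx2, an epoxide hydrolase, rose by 0.84 ± 0.16 while the receptor Esr1 was at 0.02.

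Many macrophage markers rose. Of 32 markers tested, 15 rose and 0 fell, with a median of 0.34, and 30 of 32 lay above 0. Vsig4, a complement receptor of resident macrophages, had log2 levels of 8.95, 8.42 and 8.83 in mutant knockouts, against 6.65, 6.55 and 7.64 in mutant controls, and rose by 1.79 ± 0.28 (adjusted p 0.00218). Controls 1 and 2 were under the level of the filter. Fcrls rose by 0.69 ± 0.10, the complement component C1qa by 0.51 ± 0.10, the lysosomal protein Laptm5 by 0.45 ± 0.09 and the Fc receptor Fcgr2b by 0.37 ± 0.06. The standard markers Adgre1 and Csf1r rose by 0.36 ± 0.08 and 0.32 ± 0.08, but the first call ended without mutant control 1 or mutant knockout 2 (adjusted p up to 0.0575) and the other without any array but mutant control 3 (up to 0.113), while Cd68 (0.44, adjusted p 0.0522) did not pass. Mutant control 3 was the highest control for C1qa, Vsig4, Cd68 and Laptm5. The summed intensity of the 32 genes lay between 41123 and 42569 in knockouts and between 28505 and 36550 in controls. When 1 array was left out, between 10 and 18 genes rose, and 9 and 4 rose after adjustment for the fat and the immediate early score.

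Counts for the other immune groups also depended on single arrays. Of 21 genes of MHC class II and complement 7 rose and 0 fell, with a median of 0.32, and 2 rose without mutant control 1 or mutant control 2 and 3 without mutant knockout 2 or mutant knockout 3. C1qb (0.55 ± 0.13) and C1qc (0.67 ± 0.15) were among them, whereas H2-Aa (0.45), H2-Ab1 (0.47), H2-Eb1 (0.32) and Cd74 (0.31) did not pass. Of 33 chemokines and cytokines 6 rose and 0 fell, and 1 rose without mutant control 1 or mutant knockout 1, 2 without mutant control 2 and 3 without mutant knockout 2 or mutant knockout 3. The call made in every fit was that of Cx3cl1, the membrane-bound chemokine fractalkine, which stood at 10.19, 9.999 and 9.97 in mutant knockouts against 9.43, 9.40 and 9.43 in mutant controls and rose by 0.64 ± 0.08. Ccl2 (0.18), Ccl3 (0.14), Ccl4 (0.23) and Ccl5 (0.27) did not pass. All 25 interferon-induced genes lay above 0, with a median of 0.29, but 4 rose, 1 without mutant control 1, mutant knockout 1 or mutant knockout 2, 2 without mutant control 2 and 7 without mutant knockout 3, and none of the 4 calls was made in every fit. Ifit1 rose by 1.18 ± 0.33 and lost its call without any of 5 arrays (adjusted p up to 0.125). Of 10 lymphocyte markers 1 rose, a call that ended without any array but mutant control 1, and 0 fell, or 2 without mutant control 2. Cd3e (-0.36) and Cd4 (-0.22) did not pass.

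Some cell division genes rose, by small amounts. Of 37 tested, 12 rose and 0 fell, with a median of 0.23, and between 7 and 18 rose when 1 array was left out, the fewest without mutant control 2 or mutant knockout 2 and the most without mutant knockout 3. After adjustment for the immediate early score 4 rose. The helicase subunits Mcm5 and Mcm2 rose by 0.50 ± 0.06 and 0.34 ± 0.07, the licensing factor Cdt1 by 0.30 ± 0.06, the transcription factor E2f8 by 0.53 ± 0.09 and Uhrf1, which maintains DNA methylation, by 0.42 ± 0.07. Cenpa, the centromere histone, rose by 0.49 ± 0.10. Mki67, Top2a and Ccna2, also on the list, were at 0.18, 0.31 and 0.28 and did not pass (adjusted p 0.475, 0.202 and 0.297).

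Markers of cells outside the smooth muscle layer also moved. Of 32 endothelial genes 9 rose and 1 fell, or 0 without mutant control 1, with a median of 0.30 and 31 above 0, and the summed intensity lay between 52178 and 58392 in mutant knockouts and between 41934 and 51161 in mutant controls. Plvap, found in the diaphragms of endothelial pores, rose by 0.62 ± 0.09, Vwf, von Willebrand factor, by 0.51 ± 0.11 and Cdh5, the endothelial cadherin, by 0.59 ± 0.16, while Pecam1 (0.25), Kdr (0.34) and Flt1 (0.03) did not pass. Without mutant control 2 there was 1 risen gene, without mutant control 1 or mutant knockout 1 there were 3, without mutant knockout 2 there were 4 and without mutant control 3 there were 14. After adjustment for the fat score 1 rose. Of 25 fibroblast genes 4 rose, or 1 without mutant control 1 and 2 without mutant control 2 or mutant knockout 2, and 3 fell, or 1 without control 1, control 2 or knockout 1 of the mutant, with a median of 0.03, and Pdgfra (-0.15), Dpt (-0.04), Lum (-0.13) and Dcn (-0.08) did not pass. Their summed intensity overlapped, between 105608 and 112205 in knockouts and between 100932 and 114899 in controls.

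Heart muscle genes rose in part. The sampled segment borders the heart, and whether heart tissue was sampled with it was not tested. Of 32 heart muscle genes tested, 8 rose and 1 fell, or 0 without any array but mutant knockout 3, with a median of 0.23. Their summed intensities lay between 41696 and 45273 in mutant knockouts and between 29570 and 34523 in mutant controls. Tnnt2, cardiac troponin T, stood at 13.01, 13.01 and 13.11 in knockouts against 11.59, 12.30 and 12.22 in controls and rose by 1.01 ± 0.16. Myl7, the atrial myosin light chain, stood at 9.72, 10.24 and 8.96 in knockouts against 8.37, 8.35 and 8.56 in controls and rose by 1.21 ± 0.27. The cardiac myosin Myh6 (0.52, adjusted p 0.123) and the atrial light chain Myl4 (0.03) did not pass, and 5 genes rose without mutant control 1 or mutant knockout 2, and 0 after adjustment for the immediate early score. Over the 12 arrays Tnnt2 stood at percentile 97.1 of all gene signals. The other heart markers Myh6, Myh7 and Nppa stood at 43.6, 48.8 and 39.6. Of 19 skeletal muscle genes 7 rose and 1 fell, and between 2 and 4 rose when any 1 mutant array was left out, with Ckm at 0.38 ± 0.07 and Acta1 at 0.18 ± 0.05, and the defining myosins Myh1 and Myh4 were under the filter. Of 27 fat genes 6 rose, or 10 without mutant control 3, and 0 fell, with a median of 0.24. Cidea, of brown fat, rose by 0.96 ± 0.16, Pparg by 0.60 ± 0.12 and Dio2 by 0.74 ± 0.16, but the defining genes Adipoq (0.24) and Plin1 (0.19) did not pass, and the fat score was -0.08 in mutant knockout 2 and 0.27 in mutant control 3, against 0.41 and 0.28 in mutant knockouts 1 and 3 and -0.44 and -0.17 in mutant controls 1 and 2. Nerve genes had 0 of 16 called by limma, with a median of 0.12. The part of these cell types in the changes of the other groups was not tested beyond the fit with the fat score as a covariate, in which 889 genes were called.

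The last question was which of these effects differ from those in the wild-type aorta. In wild-type knockouts 2814 genes (18.8%) were called, 1370 risen (9.17%) and 1444 fallen (9.66%), and 457 genes rose and 457 fell in both genotypes. The difference between the knockout effects was itself past the threshold in 221 genes (1.48%), in 60 (0.401%) with the more positive effect in the mutant and in 161 (1.08%) with the more negative. Leaving out wild-type knockout 1 gave 107, wild-type knockout 3 109, mutant control 2 118, mutant knockout 2 128 and mutant knockout 1 142. The mutant and the wild-type comparison use different arrays. Matrix genes were among the differences. Eln changed by -0.49 in the mutant and by 0.44 in the wild-type (adjusted p of the difference 0.00537), Col3a1 by -0.41 and 0.23 (0.012), Col5a2 by -0.38 and 0.23 (0.00581) and Tnc by -0.65 and 0.38 (0.0162). Col1a1, not called in the mutant, changed by -0.22 and 0.34 (0.0155) and Mmp2 by -0.21 and 0.39 (0.00974). Plod2 changed by -0.30 and 0.16 (0.0106). Each of these effects was below 0 in the mutant and above 0 in the wild-type. By limma, the wild-type rises of Eln (adjusted p 0.00662) and Col1a1 (0.00493) passed and those of Col3a1 (0.0511) and Tnc (0.06) did not. The controls also differed. Eln averaged 14.37 in mutant and 13.62 in wild-type controls, against 13.88 and 14.07 in knockouts. Tnc stood at 11.32 and 9.84 against 10.68 and 10.21, and Col1a1 at 13.85 and 13.17 against 13.62 and 13.51.

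Other genes that fell in the mutant had a less negative or a positive effect in the wild-type. Col4a5 changed by -0.92 in the mutant and by -0.16 in the wild-type (adjusted p of the difference 0.000426), Col15a1 by -1.39 and -0.60 (0.00309), Nox4 by -1.46 and -0.87 (0.0348), Lratd1 by -1.43 and -0.71 (0.00415), Igfbp2 by -1.07 and 0.02 (0.0162), Vnn1 by -1.02 and -0.19 (0.00718) and Htra1 by -0.56 and 0.00 (0.0157). Among genes that rose, Slc2a4 changed by 0.84 in the mutant and by 0.00 in the wild-type (0.00216), Id4 by 0.60 and -0.01 (0.0153), Kcnk3 by 1.24 and 0.49 (0.0346) and Rasl10b by 1.30 and 0.43 (0.0386). The differences of Nox4, Kcnk3 and Rasl10b were not called when most single arrays of the 12 were left out, with adjusted p up to 0.093, 0.0835 and 0.102. In contrast Sphkap, Mylk4, Thbs1, Adamtsl2, Vsig4, Igf1, Ddah1, Pmepa1 and Ldlrad4 moved the same way in both genotypes, and the test of the difference did not pass for any of them, which does not show that the effects were equal.

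The largest differences were in genes whose effect was more positive in the wild-type. The chemokine Ccl8 changed by 0.02 in the mutant and by 1.87 in the wild-type. It was under the level of the filter (7.31) on all 6 mutant arrays and on the wild-type controls. Only the wild-type knockouts brought its mean past the filter, so the 0.02 does not measure an absent effect. Ccna2 changed by 0.28 and 1.81, Ccnb2, the mitotic cyclin B2, by 0.23 and 1.59 and Mki67 by 0.18 and 1.38. For these cell division genes the genotypes differed more in the controls than in the knockouts. Ccna2 averaged 9.15 in mutant and 7.80 in wild-type controls, against 9.43 and 9.62 in knockouts. Ccnb2 stood at 9.13 and 8.004 against 9.36 and 9.595, and Mki67 at 8.98 and 7.85 against 9.16 and 9.23. Timp1 changed by 0.28 and 1.54 and Fcrls by 0.69 and 1.83. D17H6S56E-5 (0.43 and 1.83), Glp1r (0.44 and 1.66), the Wnt antagonist Sfrp4 (-0.01 and 1.18) and the homeobox gene Meox1 (0.31 and 1.496) complete the 10 largest, and all 10 lay on this side. Meox1 and Fcrls differed more in the knockouts. Meox1 averaged 7.88 in mutant and 8.34 in wild-type controls, against 8.19 and 9.83 in knockouts, and Fcrls 8.89 and 8.55 against 9.58 and 10.38. The differences of Mki67 and Sfrp4 ended without any of 6 and 8 of the 12 arrays, with adjusted p up to 0.0764 and 0.096. Macrophage markers had a median of 0.34 in the mutant and 0.98 in the wild-type, with the difference called for 11 of 32. Cell division genes had a median of 0.23 and 0.59, with the difference called for 7 of 37, and sterol synthesis genes a median of -0.03 and 0.24. The summed intensity of the 37 cell division genes lay between 17512 and 19396 in mutant controls and between 14227 and 15087 in wild-type controls. It lay between 19370 and 23802 in mutant knockouts and between 21807 and 23460 in wild-type knockouts.

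**Figure D5:**
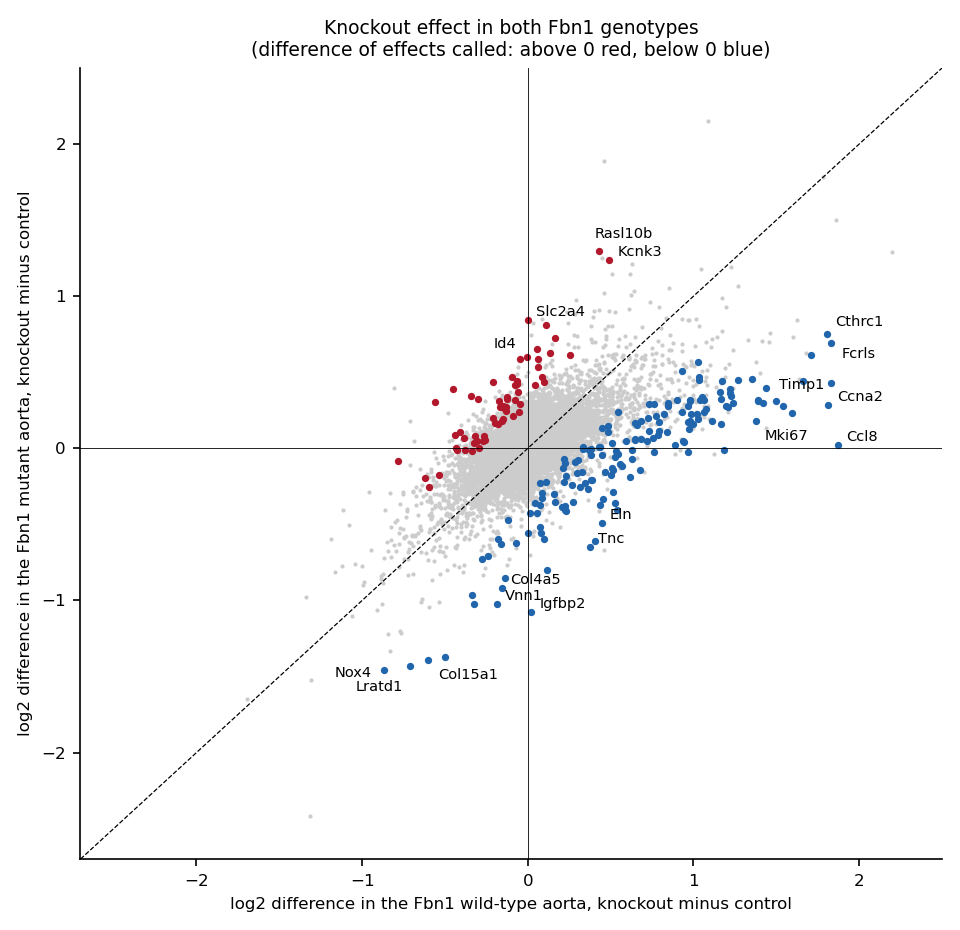
Log2 difference, knockout minus control, in the Fbn1 mutant aorta (vertical axis) against that in the Fbn1 wild-type aorta (horizontal axis) for all genes tested, with genes whose difference of effects was called in red where the mutant effect is the more positive (60) and in blue where it is the more negative (161). Points on the dashed diagonal have equal effects. Eln and Tnc lie below 0 in the mutant and above 0 in the wild-type, and Ccl8, Ccna2 and Mki67 lie far to the right near 0 in the mutant. Ccl8 was under the level of the filter on all 6 mutant arrays.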

How the data were processed

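RNA of 12 ascending aorta samples was hybridised to an Affymetrix whole-transcript mouse array, 3 arrays in each of 4 groups given by the titles. The authors deposited intensity values per probe set, made with RMA in Partek 6.4 per the submitters' processing notes, and the linear scale was read from the values. Array medians lay between 301 and 334. Precision is limited by how many arrays there are. No slide or scan date was used here, so batches were not tested.

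Intensities were turned into log2 values of the deposited intensity. Of 35556 probe sets, 21789 have 1 gene symbol in the platform annotation, 1621 several and 12146 none. The probe set of highest mean stood for each of 19938 genes, and genes whose mean was under the 25th percentile (intensity 159) were left out, which left 14944. limma 3.58.1 in R 4.3.3 was fitted with 4 group coefficients to all 12 arrays (8 residual degrees of freedom), with Benjamini-Hochberg adjustment over all 14944 genes and a threshold of 0.05. The fit was tested on simulated data.

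Members and the 45 gene lists were chosen with earlier results of these data known. Lists share genes, with 1170 tested entries for 1076 different genes, so counts of separate lists are not independent. Genes were named by a rule: the 15 largest increases and decreases with separate mutant arrays, leaving out predicted, olfactory and microRNA genes; per list up to 6 called members of smallest p and the first 4 listed; the 10 largest differences of effects; and Tgfbr2. No set test was run. Same-numbered knockouts and controls correlated in their deviations by 0.01, 0.06 and 0.16, so the numbers were not taken as pairs. Alternatives were other filters, scalings, probe set rules and variance models, a replicate block, covariates and leaving out arrays.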

Additional observations from a re-analysis of the deposited data

Results flagged for a closer look

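The knockout effect differed between the Fbn1 genotypes, by limma's test of the difference itself, in 42 of the genes named. Over all genes tested, 221 of 14944 (1.48%) passed that test. The rule for naming takes in the largest differences of effects, so some of the 42 were named because of their difference. The 42 therefore do not measure how often effects differ. Values are the mutant effect minus the wild-type effect on the log2 scale. Genes with a more positive effect in the wild-type that was also the larger of the 2 effects included Ccl8 (-1.85), Ccna2 (-1.53), D17H6S56E-5 (-1.40), Ccnb2 (-1.36), Timp1 (-1.26), Glp1r (-1.22), Mki67 (-1.20), Sfrp4 (-1.19), Meox1 (-1.19), Fcrls (-1.14), Top2a (-1.08) and Cthrc1 (-1.06). Markers of macrophages and leukocytes with their chemokine lay on the same side, Adgre1 (-0.86), Fcgr2b (-0.79), Csf1r (-0.66), Laptm5 (-0.58), Itgam (-0.56) and Ccl2 (-0.80).

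Matrix genes with an effect below 0 in the mutant and above 0 in the wild-type were Eln (-0.94), Tnc (-1.02), Col3a1 (-0.64), Col5a2 (-0.60), Col1a1 (-0.57), Plod2 (-0.46), Mmp2 (-0.60), Lum (-0.63) and Col14a1 (-0.41). Genes that fell in the mutant, with a less negative or a positive effect in the wild-type, were Igfbp2 (-1.10), 2210407C18Rik (-0.87), Vnn1 (-0.84), Col15a1 (-0.79), Col4a5 (-0.76), Lratd1 (-0.72), Rab9b (-0.70), Nox4 (-0.59) and Htra1 (-0.56). Genes with the more positive effect in the mutant were Rasl10b (0.87), Slc2a4 (0.84), Kcnk3 (0.74), Id4 (0.61), Kcnj8 (0.53) and Smad9 (0.43). The 42 differences were listed because they passed the test on all 12 arrays, so the fits below share most of their data with that selection. All 42 differences kept their sign when each of the 12 arrays was left out in turn, and 30 were called in all of these fits. The other 12 were Mki67, Sfrp4, Top2a, Rab9b, Csf1r, Nox4, Laptm5, Col14a1, Smad9, Kcnj8, Kcnk3 and Rasl10b, with adjusted p up to 0.121. No group had the 4 arrays that a test for outlying arrays needs.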

How the results depend on the processing

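Apart from 1 alternative, all 2008 called genes kept their direction wherever they were tested, while counts moved widely. With the mean of a gene's probe sets 2005 were found with the same direction. Whether the rest turned or came under the filter there was not separated. In many alternatives the direction could not change, since the log2 difference itself stays the same. These were the other filters, the trend and robust variance models and the replicate block. The fit of the 6 mutant arrays alone and the fits without a wild-type array belong there too. With a filter at the median 696 genes rose and 870 fell. Centring each array on its median gave 660 risen and 1373 fallen, array weights 3687 called (1988 risen, 1699 fallen) and 469 differences between genotypes, and a fit of the 6 mutant arrays alone 1261 (700 and 561). With the fat score as a covariate 889 genes were called (466 risen, 423 fallen; 844 shared with the 2008), with the immediate early score 522 (207 and 315; 462 shared), and without mutant control 3 and mutant knockout 1 together 1082 (595 and 487; 927 shared); the cause was not tested. When 1 of the 12 arrays was left out, called genes ranged from 896 to 2146, risen from 448 to 1210, fallen from 431 to 971 and differences from 107 to 202. Tgfbr2 was not called under any alternative (adjusted p 0.302 to 0.971). With the replicate block 1796 genes were called (1019 risen, 777 fallen), 199 differences, and Tgfbr2 was at 0.04 (adjusted p 0.57); mutant knockout 3 alone correlated best with the control of its own number. Adipoq, not called, turned to -0.49 (adjusted p 0.0148) with the fat score as a covariate, which holds Adipoq itself. Signal near or under the filter level limits what could be measured for genes such as Sphkap, Vsig4, Gmnc, Ccl8 and Glp1r.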

Other observations

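Among lists not described above, 6 of 37 redox genes rose (16.2%, against 7.66% of all genes) and 2 fell (5.41%, against 5.77%), with Nox4 among the fallen and a median of 0.10. The risen numbered 1 without mutant control 2 or mutant knockout 1, 2 without mutant control 1 and 3 without mutant knockout 3. Of 24 p53 targets 5 rose (20.8%) and 1 fell, or 2 without mutant knockout 3, with a median of 0.09, and 3 rose without mutant control 1 or 2 and 2 without mutant knockout 1. Of 21 circadian clock genes 2 rose (9.52%) and 0 fell, with a median of -0.03. There 1 rose without control 1, control 2, knockout 1 or knockout 3 of the mutant, and 1 fell without knockout 3. Of 25 cartilage and bone genes 4 rose (16%), or 2 without mutant control 2, and 2 fell, or 1 without mutant knockout 1 or 2, with a median of 0.09.

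Called genes that neighbour each other in RefSeq order (GRCm38.p6) were counted over 14935 genes. The run of 6 fallen genes on chromosome 11 was the only one of that length. There were 3 runs of 4 fallen genes and 2 runs of 4 risen genes, and 1 of the risen runs holds C1qa, C1qb and C1qc, the subunits of complement C1q. The runs were looked for after the values were seen.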
